A study of Mus musculus with 14 samples.

Results

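Genes for the proteins of the mitochondrial ribosome were measured in gastrocnemius, the main calf muscle, in which fast fibres prevail, of tumour-bearing mice. The genes were taken by symbol, as every gene named Mrpl or Mrps followed by a number and at most 1 letter. This gave 76 genes of 19505 in all: 48 Mrpl genes, named for the large subunit, and 28 Mrps genes, named for the small subunit. The family was chosen with earlier results of these data known. Each was read by 1 probeset. Male C57BL/6 mice, obtained as young adults, carried subcutaneous Panc02 tumours, a mouse pancreatic cancer line. The 7 HMB mice ate the AIN-93G diet with HMB (β-hydroxy-β-methylbutyrate, a breakdown product of leucine taken to preserve muscle), given as its calcium salt from before the tumour cells were injected, and the 7 control mice ate the AIN-93G diet alone. Both groups came from a study in which mice then received anti-PD1 or an isotype antibody, and the labels name anti-PD1 without saying which of these 14 mice had it. The labels number 14 separate samples with 1 Clariom S array each, so p-values measure the spread between these samples. The extraction text speaks of tumour, while the tissue is given as gastrocnemius muscle, and 12 of 12 markers of skeletal muscle fibres lay above background on all arrays.

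Mitochondria keep a small genome of their own, and its messenger RNAs, all of which code for subunits of the respiratory chain and ATP synthase, are translated by the mitochondrial ribosome inside the organelle. Its proteins are encoded in the nucleus, made in the cytosol and imported. The large subunit joins the amino acids and carries the tunnel through which the new chain leaves, while the small subunit reads the messenger. Some of the proteins descend from bacterial ribosomal proteins and others are found only in mitochondria. Muscle draws on the respiratory chain for sustained work.

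Values are given on a log2 scale, which was inferred from the numbers, and differences are HMB minus control in log2 units. Background was taken as the 95th percentile of intron control probesets on each array, at 10.53 to 10.87. Of the members, 36 lay above it on all 14 arrays (24 Mrpl and 12 Mrps) and 13 on none (10 Mrpl and 3 Mrps). Control 7 stood apart from the other arrays, with a median correlation of 0.960 with them, against 0.977 to 0.986 for the other 13. Markers of B cells, measured for 7 of 8 listed genes, had a summed log2 value of 21.4 to 26.3 in HMB muscle and of 22.0 to 75.5 in control muscle, or 22.0 to 25.7 without control 7. The summed value of 8 of 8 T cell markers was 35.7 to 43.2 in HMB muscle and 38.4 to 78.6 in control muscle, or 38.4 to 41.6 without control 7. That of 6 of 7 adipocyte markers was 48.3 to 72.0 in HMB muscle and 49.0 to 79.9 in control muscle, or 49.0 to 60.3 without control 7. The 12 fibre markers summed to 216 to 218 in HMB muscle and to 215 to 218 in control muscle. No B cell, T cell or adipocyte marker was listed at 0, but 3 of the 7 B cell and 5 of the 8 T cell markers were above background on no array. The main results are therefore given with and without control 7, and the part of these cells in the results was not tested. In whole muscle, fewer cells of a type and less RNA per cell cannot be told apart.

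Promoters of the members are shown because the genes are scattered over the chromosomes and most had a higher mean in HMB muscle. RefSeq sequences (GRCm38.p6) from 250 bases before to 50 bases after each annotated start matched 67 of the 76 members. Mrpl4, Mrpl13, Mrpl15, Mrpl19, Mrpl38, Mrpl54, Mrps28, Mrps34 and Mrps35 had no entry. Capitals mark letters of the motifs NRF1 (GCGCA and GCGC with any 1 base between them) or GABP (CCGGAAGT), on either strand. The stretches printed run up to the start, 5′ to 3′, for at most 200 bases and less where another annotated gene begins. They are the promoters of Mrps22 (chr9:98601680-98601879, minus strand) and Mrps12 (chr7:28741822-28741956, minus strand), the Mrps genes of smallest p, of Mrpl12 (chr11:120484437-120484636, plus strand), a stalk protein with a higher mean in HMB muscle, and of Mrpl39 (chr16:84735245-84735444, minus strand) and Mrpl10 (chr11:97041382-97041581, plus strand), the only Mrpl genes with a lower mean (Mrpl39 not after centring of each array on its median).
Mrps22: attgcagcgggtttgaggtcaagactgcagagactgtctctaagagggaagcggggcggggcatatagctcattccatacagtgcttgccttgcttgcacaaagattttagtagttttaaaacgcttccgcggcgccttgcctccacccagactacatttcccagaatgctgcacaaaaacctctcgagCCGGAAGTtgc
Mrps12: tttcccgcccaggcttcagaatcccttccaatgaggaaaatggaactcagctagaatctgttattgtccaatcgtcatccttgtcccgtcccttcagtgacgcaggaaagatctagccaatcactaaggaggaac
Mrpl12: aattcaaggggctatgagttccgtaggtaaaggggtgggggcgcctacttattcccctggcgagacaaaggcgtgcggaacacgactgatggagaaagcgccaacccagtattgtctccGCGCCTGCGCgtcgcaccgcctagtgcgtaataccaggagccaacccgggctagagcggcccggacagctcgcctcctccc
Mrpl39: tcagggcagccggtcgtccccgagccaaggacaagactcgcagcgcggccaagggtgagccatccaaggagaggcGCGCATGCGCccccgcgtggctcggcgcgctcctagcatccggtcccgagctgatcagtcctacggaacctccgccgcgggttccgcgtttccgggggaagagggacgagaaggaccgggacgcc
Mrpl10: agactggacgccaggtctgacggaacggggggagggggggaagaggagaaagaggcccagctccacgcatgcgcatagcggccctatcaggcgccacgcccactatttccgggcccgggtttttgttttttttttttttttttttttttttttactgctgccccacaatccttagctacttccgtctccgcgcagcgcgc
The last pair is the same 41 bases between the starts of Mrpl46 and Mrps11 (chr7:78783090-78783130), read on the minus strand for Mrpl46 and on the plus strand for Mrps11.
Mrpl46: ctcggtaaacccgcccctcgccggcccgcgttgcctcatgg
Mrps11: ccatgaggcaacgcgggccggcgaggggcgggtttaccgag

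Motifs were searched on both strands of the whole promoter windows. The NRF1 letters were found in 13 of 67 members (19.4%) and in 5.19% of the 27025 genes with such windows. A gene counted if any of its windows held the letters, and shares of all promoters are of these 27025 genes. The GABP letters CCGGAAGT were found in 12 members (17.9%, all promoters 4.31%) and the YY1 letters AAGATGGC also in 12 (17.9%, all promoters 3.19%). NRF1, GABP and YY1 are factors known for binding at nuclear genes of mitochondrial proteins. The ERR letters TCAAGGTCA were found in no member (all promoters 0.466%), CCAAT in 38.8% (all promoters 41.1%), the E-box CACGTG in 7.46% (all promoters 8.09%) and TATAAA in 7.46% (all promoters 15.7%). NRF1 letters were found in 10 of 42 Mrpl promoters (23.8%) and 3 of 25 Mrps promoters (12%). YY1 letters were found in 6 of 42 (14.3%) and 6 of 25 (24%). These counts are small, and a difference between the subunits was not tested. The median difference was 0.097 in members with NRF1 letters and 0.18 in those without, 0.17 with GABP letters and 0.18 without, and 0.21 with YY1 letters and 0.17 without. These are matches of letters and were not tested as binding sites.

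The question was whether levels of mitochondrial ribosome genes differed between the diets. In HMB muscle 72 of 76 members had a higher mean than in control muscle (all genes 51.7%), and the mean over members was 11.50 ± 0.08 in HMB muscle and 11.31 ± 0.27 in control muscle (SD, n = 7 each). The median difference was 0.18, against 0.0090 over all genes. With each array centred on its median gene these became 75 of 76 (all genes 64.2%) and 0.25, against 0.080 over all genes. No member passed limma's adjusted threshold of 0.05 (smallest adjusted p 0.990, all genes 0.0% called), and 34 of 76 members had a standard error larger than their difference. At an unadjusted p under 0.05, limma gave 5 members with a higher mean (all genes 2.35%) and 0 with a lower mean (all genes 2.19%), or 5 of 76 in either direction (all genes 4.54%). For no member did the groups avoid overlap (all genes 0.0615% higher and 0.0359% lower). Without control 7 the number with a higher mean was 60 of 76 (all genes 49.8%), and the median difference was 0.088. There 1 member, Mrpl43, had a higher mean at an unadjusted p under 0.05 by limma (all genes 1.93% higher). In either direction this was 1 of 76 members, against 853 of 19505 genes. The groups still overlapped for every member (all genes 0.082% without overlap and higher). All members were read on the same 14 arrays, so their directions are not separate observations.

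Counts and medians were close between the subunits. Of 48 Mrpl genes 46 had a higher mean in HMB muscle, with a median difference of 0.18, and of 28 Mrps genes 26 did, with a median of 0.16. Without control 7 the counts were 39 of 48, with a median of 0.091, and 21 of 28, with a median of 0.055. Array by array, the Mrpl mean was 11.61, 11.62, 11.43, 11.52, 11.54, 11.44 and 11.57 in HMB mice 1 to 7, against 11.51, 11.37, 11.42, 11.46, 11.53, 11.32 and 10.74 in control mice 1 to 7. The Mrps mean was 11.52, 11.51, 11.33, 11.44, 11.60, 11.34 and 11.47 in HMB mice 1 to 7, against 11.47, 11.37, 11.36, 11.34, 11.43, 11.27 and 10.68 in control mice 1 to 7. The groups overlapped in both subunits: HMB 3, HMB 4 and HMB 6 lay within the range of controls 1 to 6, and control 7 lay below every other array. All 7 HMB arrays were above the control mean in both subunits, and when control 7 was left out of that mean 6 were for Mrpl and 5 for Mrps.

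**Figure D1:**
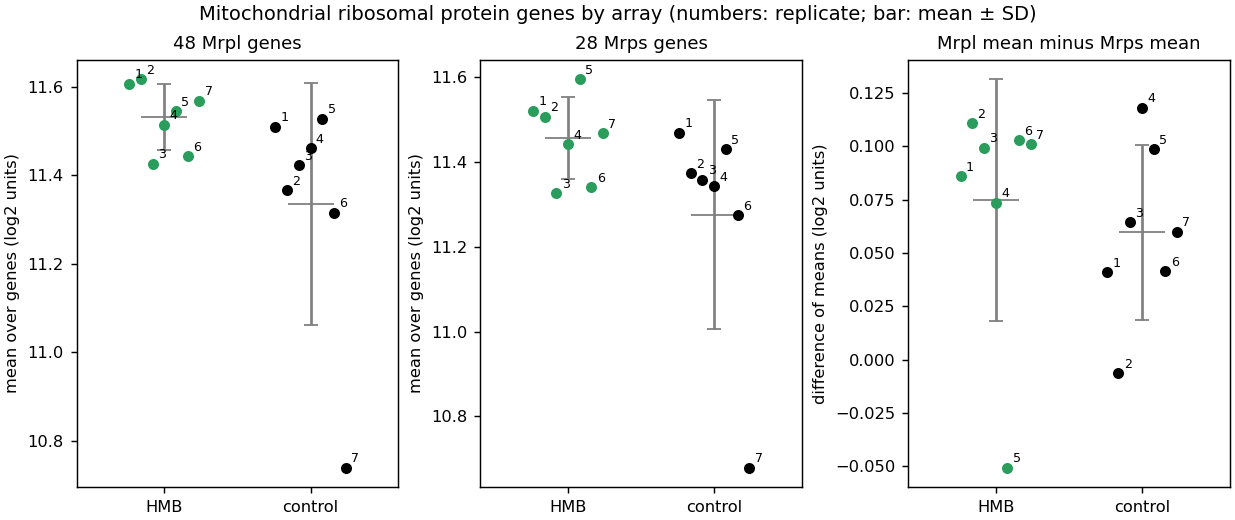
Mean of the 48 Mrpl genes (left), mean of the 28 Mrps genes (middle) and their difference (right) on each array, in log2 units, with HMB in green left of control in black, replicate numbers beside the points and bars for mean ± SD (n = 7 each). Control 7 lies at 10.74 for Mrpl and 10.68 for Mrps, below the other 13 arrays, and HMB 5 is the array of lowest Mrpl minus Mrps difference (-0.051).

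The distance between large and small subunit genes was compared within each animal. The Mrpl mean minus the Mrps mean was 0.086, 0.11, 0.099, 0.074, -0.051, 0.10 and 0.10 in HMB mice 1 to 7, and 0.041, -0.0064, 0.064, 0.12, 0.099, 0.042 and 0.060 in control mice 1 to 7. It averaged 0.075 ± 0.057 in HMB muscle and 0.060 ± 0.041 in control muscle (SD, n = 7 each), so the groups differed by less than the spread within either. The absolute size of this distance reflects the probesets and has no meaning by itself. In control 7, where both means were low, the distance was 0.060, inside the range of the other controls. HMB 5 was the only HMB array with Mrps above Mrpl, and the highest value of 8 Mrps genes but of 5 Mrpl genes fell on it.

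**Figure D2:**
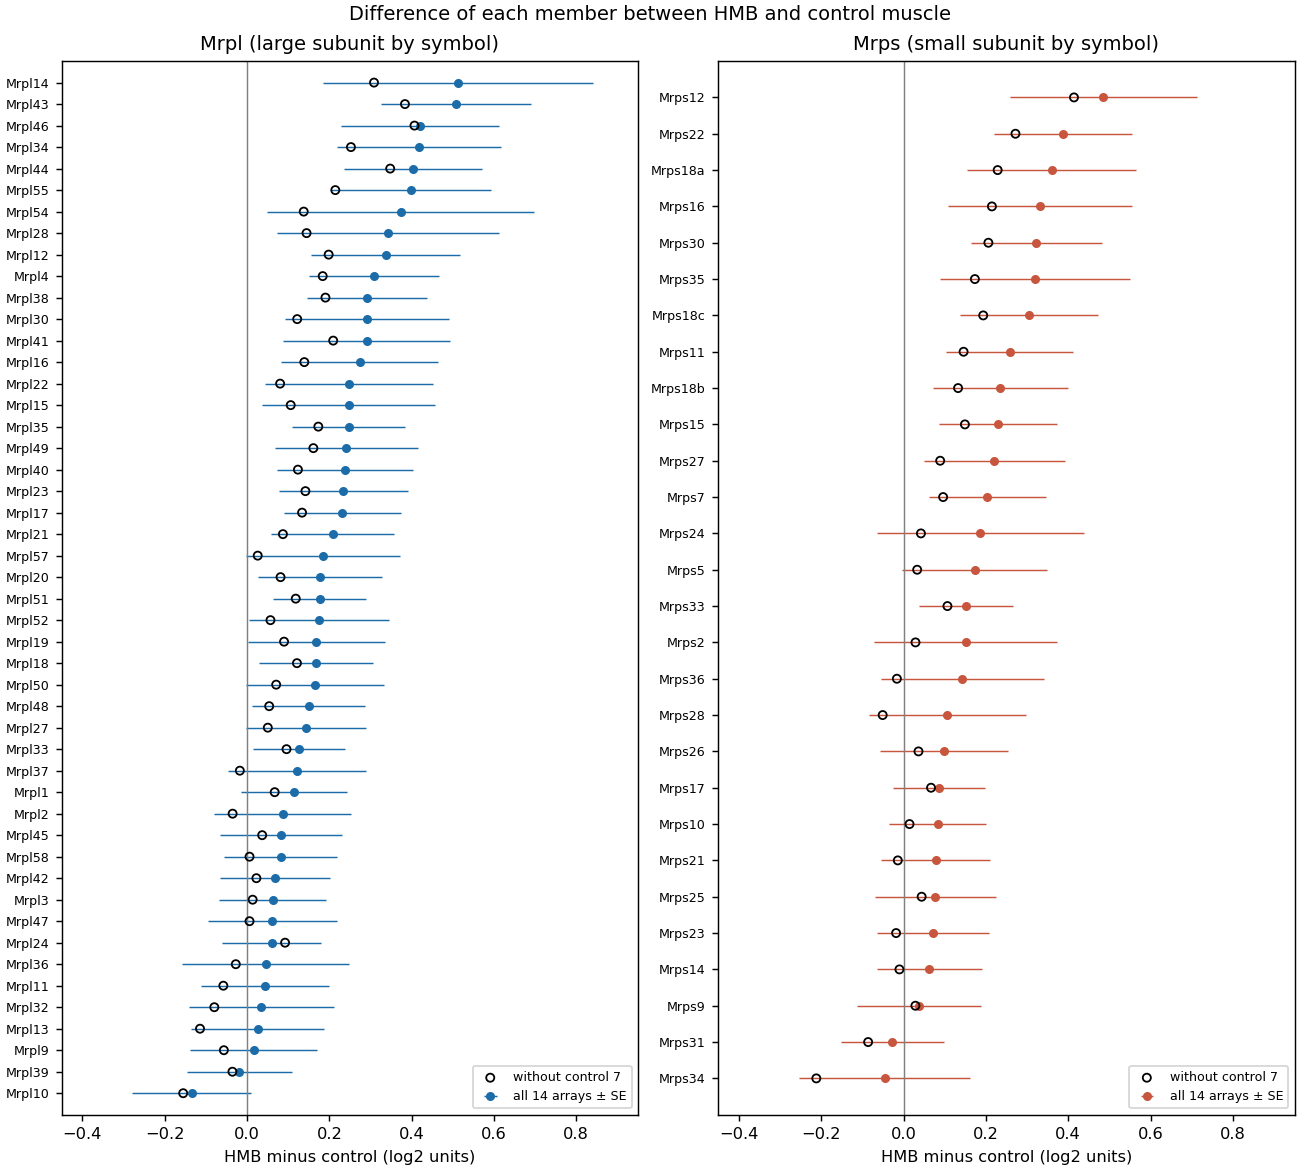
HMB minus control for each Mrpl gene (left panel) and each Mrps gene (right panel), in log2 units, ordered by size; filled points are all 14 arrays with bars of ± SE from limma and open circles leave out control 7. Only Mrpl10, Mrpl39, Mrps34 and Mrps31 lie below 0 with all arrays (Mrpl10 alone with each array centred on its median), and the open circle lies nearer to 0 or below it for most genes.

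Origin made little difference to the direction. Of 44 proteins shared with bacteria 43 had a higher mean in HMB muscle, with a median difference of 0.17, and of 30 found only in mitochondria 27 did, with a median of 0.18. Without control 7 these counts were 34 of 44, with a median of 0.084, and 25 of 30, with a median of 0.098. Mrpl55 and Mrps36 were assigned to neither group. Mrps18a and Mrps18b, though paralogs of bacterial S18, were counted as found only in mitochondria. Symbols do not always give the place: Mrps18a and Mrps30 sit in the large subunit, and Mrps36 is now placed in the oxoglutarate dehydrogenase complex. By place, 48 of 50 large subunit genes (median 0.18) and 23 of 25 small subunit genes (median 0.15) had a higher mean. Among members above background on all arrays 24 of 24 Mrpl and 11 of 12 Mrps genes did (all such genes 60.8%), and without control 7 21 of 24 and 7 of 12 (all such genes 53.1%).

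**Figure D3:**
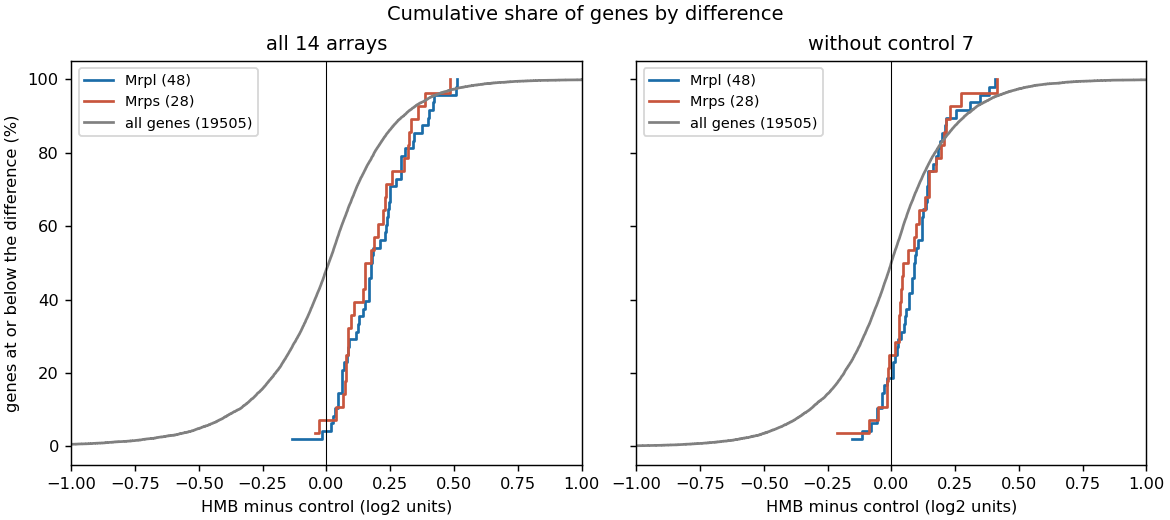
Cumulative share (percent, vertical axis) of the 48 Mrpl genes (blue), the 28 Mrps genes (red) and all 19505 genes (grey) against HMB minus control in log2 units, with all 14 arrays (left) and without control 7 (right). The Mrpl and Mrps curves run together to the right of the curve of all genes, and lie closer to it without control 7, where the medians are 0.091, 0.055 and -0.00067.

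In the large subunit, the lateral stalk, which recruits translation factors, held both directions. Mrpl12, the mitochondrial form of the stalk protein L7/L12, was at 12.78, 13.05 and 13.27 (lowest, median and highest) in HMB muscle and at 11.88, 12.73 and 13.18 in control muscle. Its lowest value was that of control 7, and the groups overlapped, with 3 HMB arrays above every control. The difference was 0.34 ± 0.18 (SE; limma, adjusted p 0.990) and 0.20 without control 7. Mrpl10, which anchors Mrpl12 to the ribosome, was at 9.75, 10.10 and 10.66 in HMB muscle and at 9.97, 10.32 and 10.46 in control muscle. Both the lowest and the highest array were HMB arrays, 4 and 3, and the difference of -0.13 ± 0.14 was the lowest of all members (adjusted p 0.990; -0.16 without control 7). This gene lay above background on no array. Mrpl11, which forms the base of the stalk, was at 10.65, 11.12 and 11.30 in HMB muscle and at 10.37, 11.03 and 11.22 in control muscle. Its groups overlapped almost wholly, and the difference was 0.044 with all arrays and -0.058 without control 7.

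Proteins with counterparts near the catalytic centre and the exit tunnel of bacterial ribosomes followed. Mrpl3, the counterpart of bacterial L3 near the peptidyl transferase centre, averaged 11.77 ± 0.17 in HMB muscle and 11.70 ± 0.24 in control muscle, a difference of 0.062 (95% interval -0.22 to 0.34). Mrpl4, whose bacterial counterpart lines the tunnel, was at 11.48, 11.59 and 11.81 in HMB muscle and at 10.52, 11.29 and 11.64 in control muscle. All 7 HMB arrays were above the control mean, but only HMB 2 was above every control, and the difference of 0.31 ± 0.16 (adjusted p 0.990) was 0.18 without control 7. Mrpl34, a small protein kept from bacteria, was at 10.94, 11.32 and 11.81 in HMB muscle and at 9.97, 11.08 and 11.23 in control muscle. Here 5 HMB arrays exceeded every control, and the difference of 0.42 ± 0.20 (adjusted p 0.990) was 0.25 without control 7. Mrpl9, another bacterial type protein, had nearly equal means, 10.51 ± 0.30 in HMB muscle and 10.49 ± 0.23 in control muscle.

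Among large subunit proteins found only in mitochondria lay the 3 Mrpl genes with an unadjusted p under 0.05 in limma. Mrpl43 was at 8.22, 8.77 and 9.04 in HMB muscle and at 7.44, 8.23 and 8.58 in control muscle. All 7 HMB arrays exceeded the mean of the controls and 5 exceeded every control, HMB 3 being the lowest of its group and control 7 the lowest of all. The difference was 0.51 ± 0.18 (unadjusted p 0.014, adjusted p 0.990 by limma), and without control 7 it was 0.38 ± 0.15 (unadjusted p 0.024, adjusted p 0.9998 by limma). Mrpl44, which has the fold of an RNase III enzyme, was at 10.16, 10.43 and 10.73 in HMB muscle and at 9.61, 10.08 and 10.71 in control muscle. Control 5 lay just under the highest HMB array, and control 4, not control 7, was the lowest. Its difference was 0.40 ± 0.17 (unadjusted p 0.029, adjusted p 0.990 by limma), and 0.35 without control 7. Mrpl46 was at 8.13, 8.46 and 9.09 in HMB muscle and at 7.72, 8.07 and 8.75 in control muscle. Of the 7 HMB arrays 4 lay among the controls, and the lowest array was control 6. The difference of 0.42 ± 0.19 (unadjusted p 0.046, adjusted p 0.990 by limma) was 0.41 without control 7, the smallest change of the 3. Mrpl43 and Mrpl46 were above background on 0 arrays and Mrpl44 on 2.

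Of other large subunit genes, Mrpl55, Mrpl38 and Mrpl58 were measured at higher signal, and Mrpl39 was not. Mrpl55 was at 12.13, 12.28 and 12.54 in HMB muscle and at 10.80, 12.03 and 12.26 in control muscle. Controls 1 to 6 began at 11.90, so the low end of the control range was control 7 alone, and the difference was 0.40 ± 0.19 (adjusted p 0.990) with all arrays and 0.21 without it. Mrpl38, which has no bacterial counterpart, averaged 11.85 ± 0.15 in HMB muscle and 11.56 ± 0.31 in control muscle, a difference of 0.29 (0.19 without control 7). Mrpl39, which resembles a threonyl-tRNA synthetase and lay above background on no array, averaged 8.93 ± 0.19 in HMB muscle and 8.95 ± 0.20 in control muscle. Its interval of -0.29 to 0.25 spans shifts in both directions as large as the median of the members. Mrpl58, a peptidyl-tRNA hydrolase built into the large subunit that can free stalled chains, averaged 12.19 ± 0.13 in HMB muscle and 12.11 ± 0.28 in control muscle (difference 0.081, and 0.0061 without control 7).

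**Figure D4:**
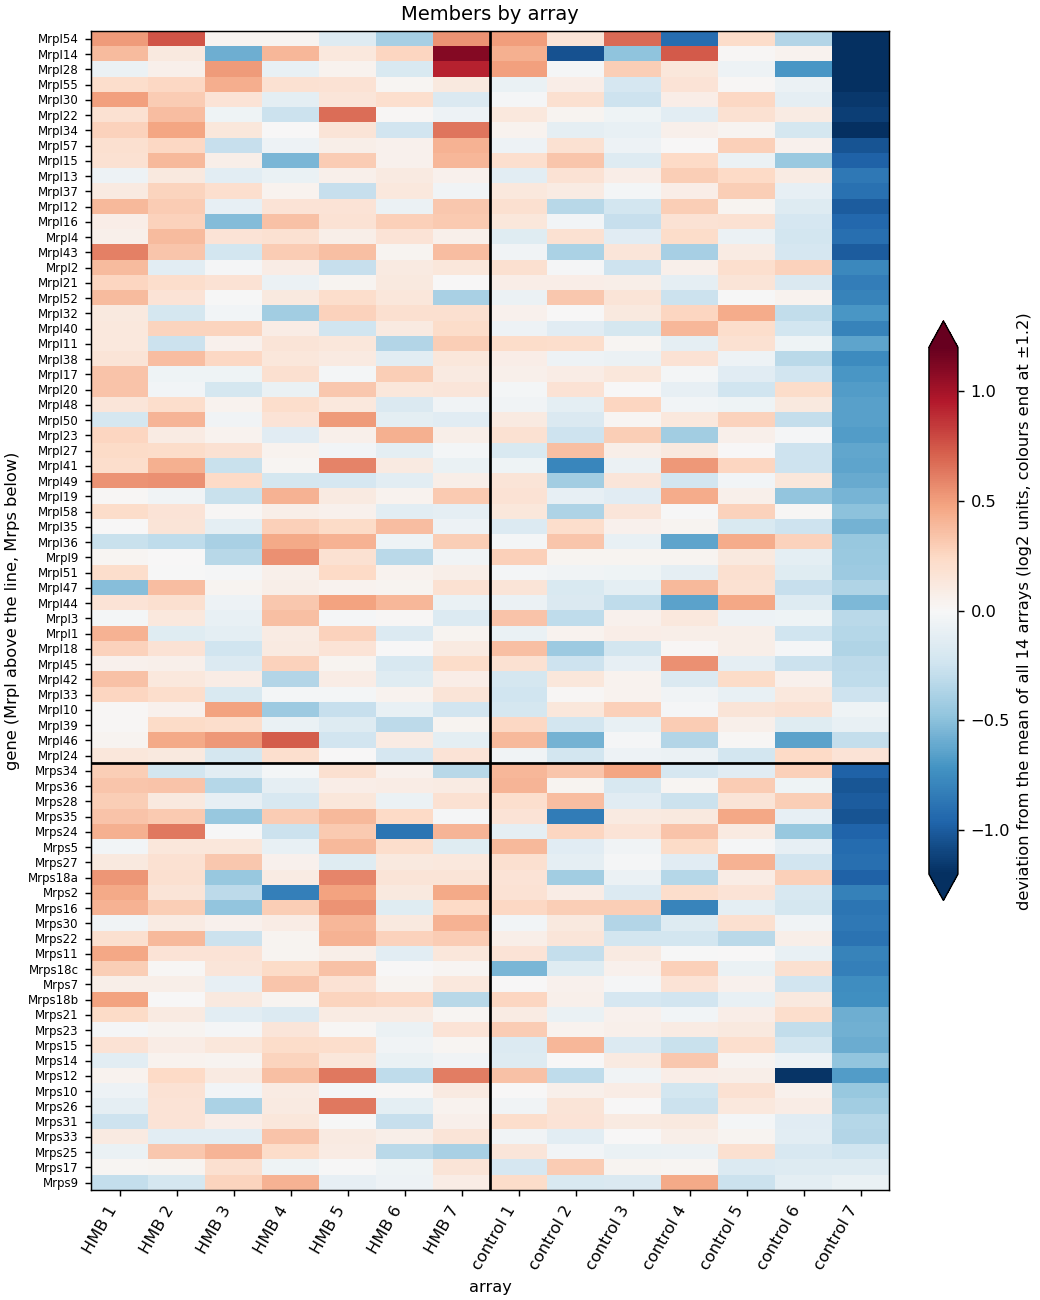
Each member (lines of the grid, Mrpl above the black line and Mrps below, ordered by the deviation of control 7) on each array (columns, HMB 1 to 7 left of control 1 to 7), coloured by the deviation from the gene's mean over all 14 arrays in log2 units, with colours ending at ±1.2. The control 7 column is blue for nearly every gene, and Mrpl24 at the foot of the Mrpl block is the only gene above the mean of the other controls there.

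In the small subunit, the protein of the decoding centre had the largest difference of its subunit. Mrps12, the counterpart of bacterial S12 that checks the fit of codon and tRNA, was at 9.55, 10.09 and 10.48 in HMB muscle and at 8.67, 9.81 and 10.20 in control muscle. The lowest array was control 6 at 8.67, with control 7 next at 9.18, and 3 HMB arrays exceeded every control. The difference was 0.49 ± 0.23 (unadjusted p 0.049, adjusted p 0.990 by limma) and 0.41 without control 7. Mrps22, a small subunit protein found only in mitochondria, was at 10.15, 10.69 and 10.82 in HMB muscle and at 9.52, 10.19 and 10.56 in control muscle. HMB 3 and HMB 4 lay within the range of the controls and 5 HMB arrays above it. Its difference was 0.39 ± 0.17 (unadjusted p 0.036, adjusted p 0.990 by limma) and 0.27 without control 7. Mrps12 was above background on 0 arrays and Mrps22 on 4.

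Mrps11, which in bacteria belongs to the platform that cradles the messenger, was at 11.13, 11.40 and 11.72 in HMB muscle and at 10.46, 11.26 and 11.42 in control muscle. Controls 1 to 6 began at 10.97, and the difference was 0.26 ± 0.15 (adjusted p 0.990; 0.15 without control 7). Mrps28, the mitochondrial form of bacterial S1, was at 11.05, 11.36 and 11.54 in HMB muscle and at 10.24, 11.39 and 11.60 in control muscle. Here the control median was the higher, no HMB array exceeded every control, and the difference of 0.11 became -0.051 without control 7. Mrps34 and Mrps31, found only in mitochondria, were the Mrps genes of lowest difference, at -0.046 and -0.027, or 0.025 and 0.043 with each array centred on its median. Mrps34 was at 11.07, 11.37 and 11.69 in HMB muscle and at 10.42, 11.68 and 11.87 in control muscle. The control median lay close to the highest HMB array while control 7 lay far below every HMB array, and the difference of -0.046 ± 0.21 (SE) was -0.21 without control 7. Mrps31 averaged 11.77 ± 0.18 in HMB muscle and 11.79 ± 0.20 in control muscle.

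The 3 paralogs of bacterial S18 had close differences. Mrps18c, which takes the place of S18 in the small subunit, averaged 10.48 ± 0.14 in HMB muscle and 10.18 ± 0.40 in control muscle, a difference of 0.30 (0.19 without control 7). Mrps18b, at another place in the small subunit, averaged 11.78 ± 0.26 in HMB muscle and 11.54 ± 0.32 in control muscle, a difference of 0.24 (0.13 without control 7). Mrps18a, in the large subunit, averaged 11.39 ± 0.34 in HMB muscle and 11.03 ± 0.43 in control muscle, a difference of 0.36 (0.23 without control 7). The adjusted p was 0.990 for each in limma. Mrps30, the other gene of the large subunit with a small subunit name, averaged 10.99 ± 0.18 in HMB muscle and 10.67 ± 0.35 in control muscle, a difference of 0.32 (0.21 without control 7). Mrps36 averaged 12.55 ± 0.24 in HMB muscle and 12.40 ± 0.47 in control muscle, a difference of 0.14 that was -0.016 without control 7.

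Control 7 was low for members of both subunits. It was the lowest control for 65 of 76 members (40 Mrpl and 25 Mrps, all genes 27.7%) and the lowest of all 14 arrays for 61 (38 Mrpl and 23 Mrps), against 19.1% of all genes. Set against the mean of controls 1 to 6, its median deviation was -0.67 over Mrpl and -0.76 over Mrps genes, and -0.13 over all genes. The deviation reached -1.65 for Mrpl54, -1.43 for Mrpl14 and -1.39 for Mrpl28, 3 large subunit genes named here after their values were seen. Mrpl24, named likewise, was the only member higher on control 7 than the mean of the other controls, by 0.23. Other gene lists moved on the same array: complex I subunits by a median of -0.67, factors of mitochondrial translation by -0.45, markers of muscle fibres by -0.13, cytosolic ribosomal proteins by 0.26, and markers of B cells by 7.45, T cells by 4.94 and adipocytes by 4.77. The part of these cells in the low mitochondrial ribosome values of control 7 was not tested.

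**Figure D5:**
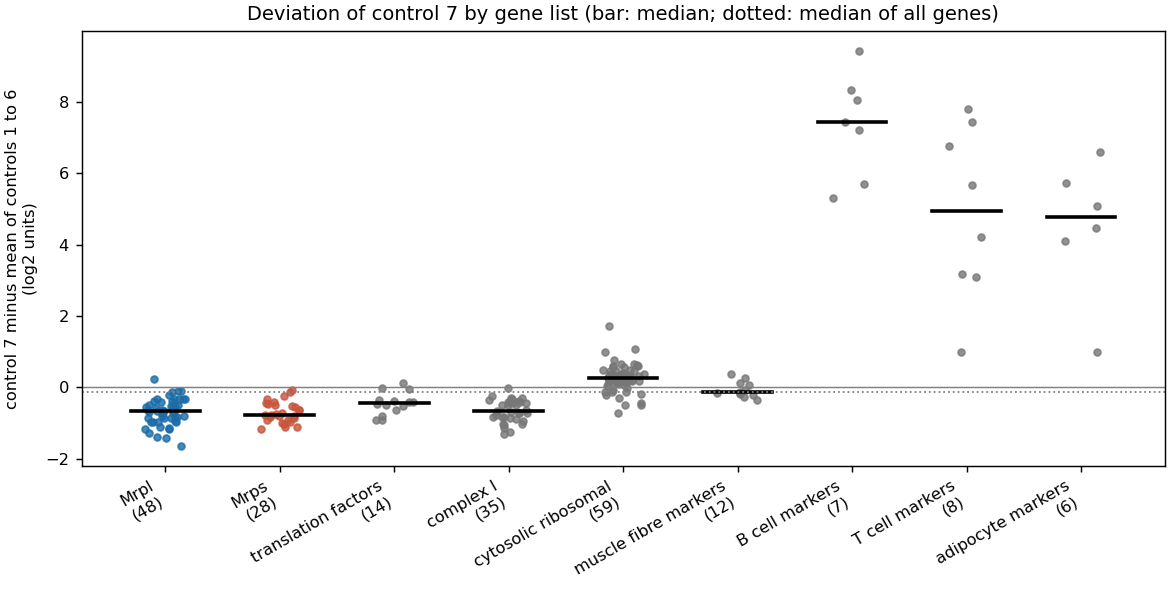
Deviation of control 7 from the mean of controls 1 to 6 (log2 units) for each gene of 9 lists, with bars at the medians, a dotted line at the median of all genes (-0.13) and list sizes in parentheses. Mrpl (-0.67), Mrps (-0.76) and complex I (-0.67) lie below the dotted line, while B cell (7.45), T cell (4.94) and adipocyte markers (4.77) lie far above it.

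The spread also depended on control 7. The SD was smaller in HMB than in control muscle for 65 of 76 members (57.9% of all genes), with medians of 0.21 in HMB muscle and 0.35 in control muscle. Without control 7 it was smaller in HMB muscle for 38 of 76 members, and the control median was 0.20. Leaving that array out lowered the difference of 75 of 76 members, and turned the sign of 12. Other marker lists are given with their values, and no marker of them passed limma's adjusted threshold (smallest adjusted p 0.990). The 4 of 7 Schwann cell markers measured had a median difference of -0.97 (-0.92 without control 7), and 8 of 8 keratinocyte markers, all under background on every array, had a median of 0.42 (8 of 8 higher in mean). Without control 7 the keratinocyte median was 0.44 (6 of 8), and without control 7 and HMB 4 it was 0.24 (6 of 8). Slow fibre markers had a higher mean in HMB muscle for 8 of 9 genes (median 0.18), but for 4 of 9 without control 7 and HMB 4. Their part in the values of the members was not tested.

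Partners of these proteins were read from lists of known roles. Of 5 further proteins of the mitochondrial ribosome without an Mrp symbol 4 were measured and all 4 had a higher mean in HMB muscle, with a median difference of 0.21, and 3 did without control 7 (median 0.10). Gadd45gip1, a large subunit protein whose gene lay above background on no array, averaged 8.91 ± 0.31 in HMB muscle and 8.56 ± 0.54 in control muscle. Dap3, a small subunit protein that binds GTP, averaged 12.16 ± 0.21 in HMB muscle and 11.94 ± 0.29 in control muscle, and Chchd1, also of the small subunit, averaged 11.11 ± 0.36 in HMB muscle and 10.90 ± 0.44 in control muscle. Their differences were 0.36, 0.22 and 0.21 with all arrays and 0.20, 0.13 and 0.069 without control 7.

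Among factors that work on the ribosome the counts were less one-sided. Of 14 factors of mitochondrial translation measured 11 had a higher mean in HMB muscle (median 0.084), and 9 without control 7 (median 0.049). Mtif3, an initiation factor, was at 10.09, 10.19 and 10.48 in HMB muscle and at 8.91, 9.82 and 10.07 in control muscle. All 7 HMB arrays lay above all 7 control arrays (all genes 0.0615%), but the lowest HMB value, 10.09, was close to the highest control value, 10.07. Mtif3 lay above background on no array. Its difference of 0.51 ± 0.17 had an unadjusted p of 0.010 and an adjusted p of 0.990 by limma (0.38 without control 7). Taco1, a translational activator of the cytochrome oxidase subunit Cox1, averaged 12.72 ± 0.22 in HMB muscle and 12.43 ± 0.34 in control muscle, and the elongation factor Tsfm averaged 9.51 ± 0.25 in HMB muscle and 9.26 ± 0.40 in control muscle. Of 24 assembly factors of the ribosome 16 had a higher mean (median 0.12), and 13 without control 7 (median 0.043, all genes 49.8% with a higher mean). The difference was 0.28 ± 0.14 for Mpv17l2, 0.37 ± 0.23 for the RNA helicase Ddx28 and 0.24 ± 0.17 for the small subunit factor Rbfa (SE), and without control 7 it was 0.25, 0.23 and 0.16. Of 19 mitochondrial tRNA synthetases and related enzymes, which charge tRNAs with amino acids, 16 had a higher mean (median 0.13), and 14 without control 7 (median 0.049). No gene of these lists passed limma's adjusted threshold. Of the genes named, Tsfm and Ddx28 also lay above background on no array.

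The products of the mitochondrial ribosome join nuclear-encoded subunits, of which complex I gives an example. Of 35 complex I subunits 33 had a higher mean in HMB muscle (median 0.12), and 23 without control 7 (median 0.026). Proteins of the cytosolic ribosome, which makes the mitochondrial ribosomal proteins themselves, gave other counts: 35 of 59 had a higher mean (median 0.016), and 42 without control 7 (median 0.043). Leaving out control 7 thus lowered the count for the mitochondrial ribosome and complex I and raised it for the cytosolic ribosome.

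Several members share a start region with a gene read in the other direction. In the RefSeq annotation 26 members had a diverging start of another gene within 1000 bases, and 26 of 26 had a higher mean in HMB muscle with all arrays (median 0.21), against 23 of 26 without control 7 (median 0.12). Of their 24 neighbours outside the family 21 were measured, and 13 had a higher mean (median 0.045, all genes 51.7%). Without control 7, 11 neighbours did (median 0.017, all genes 49.8%). Control 7 was the lowest control for 22 of the 26 members (65 of all 76 members) and for 6 of the 21 neighbours (all genes 27.7%). Mrpl43 and Twnk, the mitochondrial DNA helicase, start 116 bases apart and had differences of 0.51 and -0.017. Mrps12 and Sars2, a mitochondrial seryl-tRNA synthetase, start 147 bases apart and had differences of 0.49 and 0.075. Mrpl46 and Mrps11, whose shared stretch is given with the promoters, are the only such pair of members. They start 42 bases apart, and had differences of 0.42 and 0.26 with all arrays and deviations of control 7 of -0.092 and -0.78, so that array was low for Mrps11 and not for Mrpl46.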

How the data were processed

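RNA of gastrocnemius muscle from 7 HMB and 7 control mice was measured on Clariom S mouse arrays, and groups were taken from the sample titles. The values deposited by the authors were read as log2 intensities of summarised probesets. That scale was inferred from the numbers, and background correction, summarisation and normalisation are not given in the sources used here. The highest values, 19.2 to 19.5, lie above the range of a scanner, so differences are given in log2 units with no fold. The deposited table held 28846 probesets, of which 22206 measured genes. The 19572 with 1 symbol were kept, and several probesets of a gene (55 genes) were averaged, giving 19505 genes with no filter on dim ones. The number of arrays limits the precision.

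The diets were compared by limma 3.58.1 under R 4.3.3, with two-sided moderated tests (lmFit, then eBayes) adjusted after Benjamini and Hochberg over all genes. The code was first tested on simulated data, with changes given to genes drawn from all 19505. At the adjusted threshold it recovered 10% of changes of 0.5 log2 units, 60% of those of 1 and 94% of those of 2. Lists are described by counts and medians beside those of all genes, with no test. The members and lists were chosen with earlier results of these data known. Genes named are the 8 Mrpl and 6 Mrps of smallest unadjusted p, the 3 Mrpl and 2 Mrps of lowest difference, the 3 Mrps18 paralogs, members of known role, and the 3 of smallest p of each list of partners. Assembly factors were treated likewise, and Mrpl14, Mrpl24, Mrpl28 and Mrpl54 and the genes with shared starts were named after their values were seen. Alternatives were renewed quantile normalisation, median centring, filters on dim genes, the brightest or each probeset, a trended robust prior, the replicate number as a block, weights for arrays, an unpaired t statistic, subunits by place, leaving out each array and, chosen after seeing the data, leaving out control 7 and HMB 4 together and counts over genes above background on all arrays. Probesets without a symbol (2634) and the members Mrpl53 and Mrps6 were not analysed here.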

Additional observations from a re-analysis of the deposited data

Results flagged for a closer look

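Each group of 7 arrays was searched for a highest or lowest array far from the nearest other one, over 37 quantities in both groups. This marked 11 of 74, and chance marks about 1 in 20 groups. The quantities are not independent, since 7 of the 11 fell on control 7.

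In control 7 the mean over Mrpl genes was 10.74 (nearest control 11.32, control median 11.42) and the mean over Mrps genes 10.68 (nearest 11.27, median 11.36). Single genes low on this array were the large subunit genes Mrpl34 at 9.97 (nearest 10.96), Mrpl55 at 10.80 (nearest 11.90), Mrpl4 at 10.52 (nearest 11.20) and Mrpl11 at 10.37 (nearest 10.89), and Mrps36 at 11.45 (nearest 12.28).

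Elsewhere the Mrpl mean minus the Mrps mean was -0.051 in HMB 5 (nearest HMB array 0.074, HMB median 0.099). Mrpl4 was at 11.81 in HMB 2 (nearest 11.60) and the initiation factor Mtif3 at 10.48 in HMB 7 (nearest 10.26). The assembly factor Rbfa was at 9.77 in HMB 4 (nearest 10.33).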

How the results depend on the processing

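The 5 summary results (genes past limma's adjusted threshold, and the mean difference and count of higher means for Mrpl and for Mrps) kept their direction in all 123 recomputations. The adjusted count was 0 in each. Fits over all 19505 genes gave 798 to 1050 genes at an unadjusted p under 0.05 (853 by the methods' t-test). The filters on dim genes gave 191 of 5590 and 403 of 9753 genes, and each probeset taken alone gave 1006 of 22206. The mean difference over Mrpl genes was 0.20 and became 0.13 with array weights and 0.27 with median centring, and that over Mrps genes was 0.18 and became 0.12 and 0.25. Leaving out 1 array gave 0.098 to 0.23 for Mrpl and 0.082 to 0.21 for Mrps, with counts of 39 to 47 of 48 and 21 to 28 of 28. The lowest came without control 7, where both means moved by more than the SD of the HMB arrays (0.075 and 0.097) and by less than the SD of the controls with control 7 included (0.27 each). Without control 7 and HMB 4 the means were 0.10 and 0.085.

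Of the named genes 8 changed sign. With array weights Mrpl11 was -0.046 and Mrpl9 -0.067. With median centring Mrpl39 was 0.052, Mrps31 0.043 and Mrps34 0.025. Without control 7 and HMB 4 Mrpl11 was -0.079, Mrpl3 -0.041, Mrpl9 -0.15 and Mrps28 -0.010. Leaving out 1 array gave -0.058 to 0.11 for Mrpl11, -0.058 to 0.032 for Mrpl39, -0.074 to 0.072 for Mrpl9, -0.051 to 0.18 for Mrps28, -0.086 to 0.017 for Mrps31, -0.21 to 0.028 for Mrps34 and -0.016 to 0.22 for Mrps36. With all arrays each of these differences is smaller than its standard error, and the cause was not tested.

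With the replicate number as a block the adjusted count was 0 and 958 genes had an unadjusted p under 0.05. No pairing by number was seen: same-numbered arrays correlated at -0.075 to 0.12 in their deviations, and 1 of 7 pairs matched its own number best. These correlations run over all genes, dim ones included, so they cannot exclude a pairing. The 13 members under background on every array are measured least well.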
